A study of Mus musculus with 12 samples.

Results

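Matrix metalloproteinases (MMPs), the related ADAMTS proteases and ADAMTS-like proteins, and the tissue inhibitors of metalloproteinases (TIMPs) were followed in mouse hearts after ischemia/reperfusion. The members were taken by symbol from the deposited expression table: every numbered Mmp and Adamts gene, Adamtsl1 to Adamtsl5 and Timp1 to Timp4, which gave 51 of 55487 genes. Of these, 28 reached the level required for a test, 1 FPKM in 3 or more of 12 libraries, and 23 did not. FPKM counts sequenced fragments relative to the length of the transcript and to the total of the library. Across the threshold, the third highest library value was 1.25 FPKM for Adamts3, 1.85 for Mmp12 and 2.16 for Adamtsl3 just inside it, and 0.88 for Adamtsl1, 0.87 for Mmp17 and 0.67 for Adamts12 just outside. Mmp8 passed through libraries of injured hearts alone, so a difference between injured and sham hearts was built into its passing. Adamts4 passed mainly through such libraries, as given below.

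There were 4 groups of 3 libraries. I/R+B12 mice received vitamin B12 at 50 mg/L in the drinking water for 7 days and then had the left anterior descending coronary artery closed for 45 min and reopened for 24 h. I/R mice had the same operation on normal water. Sham+B12 mice had the B12 water and the chest operation without the closure of the artery, and Sham mice had that operation on normal water. All mice were wild type and drank 4 mL a day. Age, sex, strain, and which portion of the heart was taken are not given in the sources used here, nor whether each library came from 1 mouse. The p-values below measure the spread between these libraries. The series compares injury with sham surgery on either water, and B12 with normal water in either kind of heart.

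MMPs are zinc-dependent proteases that cut collagens, gelatin, proteoglycans and many signalling proteins outside the cell. They are made as inactive precursors and are opened by other proteases. ADAMTS proteases bind the matrix through thrombospondin repeats, and several of them cut the large proteoglycans versican and aggrecan, while the ADAMTS-like proteins have the binding repeats but no protease domain. TIMPs block the active site of MMPs and, for Timp3, of several ADAM and ADAMTS proteases as well. In the infarcted heart this system is known for clearing dead tissue, for letting leukocytes in, and for the later rebuilding of the scar.

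The spacing of low FPKM values put the depth of the libraries at 23.5 to 27.25 M fragments, at which 1 FPKM stood for 29.4 to 34.1 fragments of a transcript 1500 nt long. Between 11490 and 12612 genes reached an FPKM of 1. The tissue label fitted the defining heart muscle genes, whose 12 markers summed to 37376 to 60627.3 FPKM in the 12 libraries. A pair of libraries stood apart from their labels. The library labelled Sham 3 was nearer to the mean of I/R 1 and 2 than to that of Sham 1 and 2 in 18 of the 28 tested members, and the library labelled I/R 3 was nearer to the mean of Sham 1 and 2 in 22. The sum of 12 neutrophil markers was 16.4 FPKM in I/R 3, against 1311.8 and 1269 in I/R 1 and 2, and 82.9 in Sham 3, against 6.8 and 11.8 in Sham 1 and 2. Sham 3 also had 3175.6 FPKM over the 6 atrial muscle markers, against 335.9 and 553.2 in Sham 1 and 2. The labels were kept. In the comparisons that use these libraries, the count of called members and the differences of the members named with a test are also given with both left out.

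Inhibitors were among the most abundant members. Averaged over the 12 libraries, Timp3 stood at 94.5 FPKM, Timp1 at 50.6, Timp2 at 38.9 and Timp4 at 38.4. The mean of Timp1 rested on a few injured hearts, and its median was 10.2 FPKM, below those of Mmp2 (32.1), Adamtsl5 (23.8), Mmp15 (17.2), Mmp14 (16.5), Adamts1 (14.3) and Adamtsl4 (11.6). By mean, the next were Mmp2, which is gelatinase A, at 35.5, the ADAMTS-like gene Adamtsl5 at 25.4, the versican- and aggrecan-cutting protease Adamts1 at 20.8 and the membrane-type protease Mmp15 at 17.6. The members differed widely in how far they varied. The highest library exceeded the lowest 585-fold for Adamts4, 137-fold for Timp1, 52.5-fold for Mmp9, 21.6-fold for Mmp3 and 17.5-fold for Mmp19, but 1.77-fold for Adamts5, the steadiest of the tested members. Mmp8 and Mmp12 were at 0 in 1 library each and have no such ratio.

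**Figure D1:**
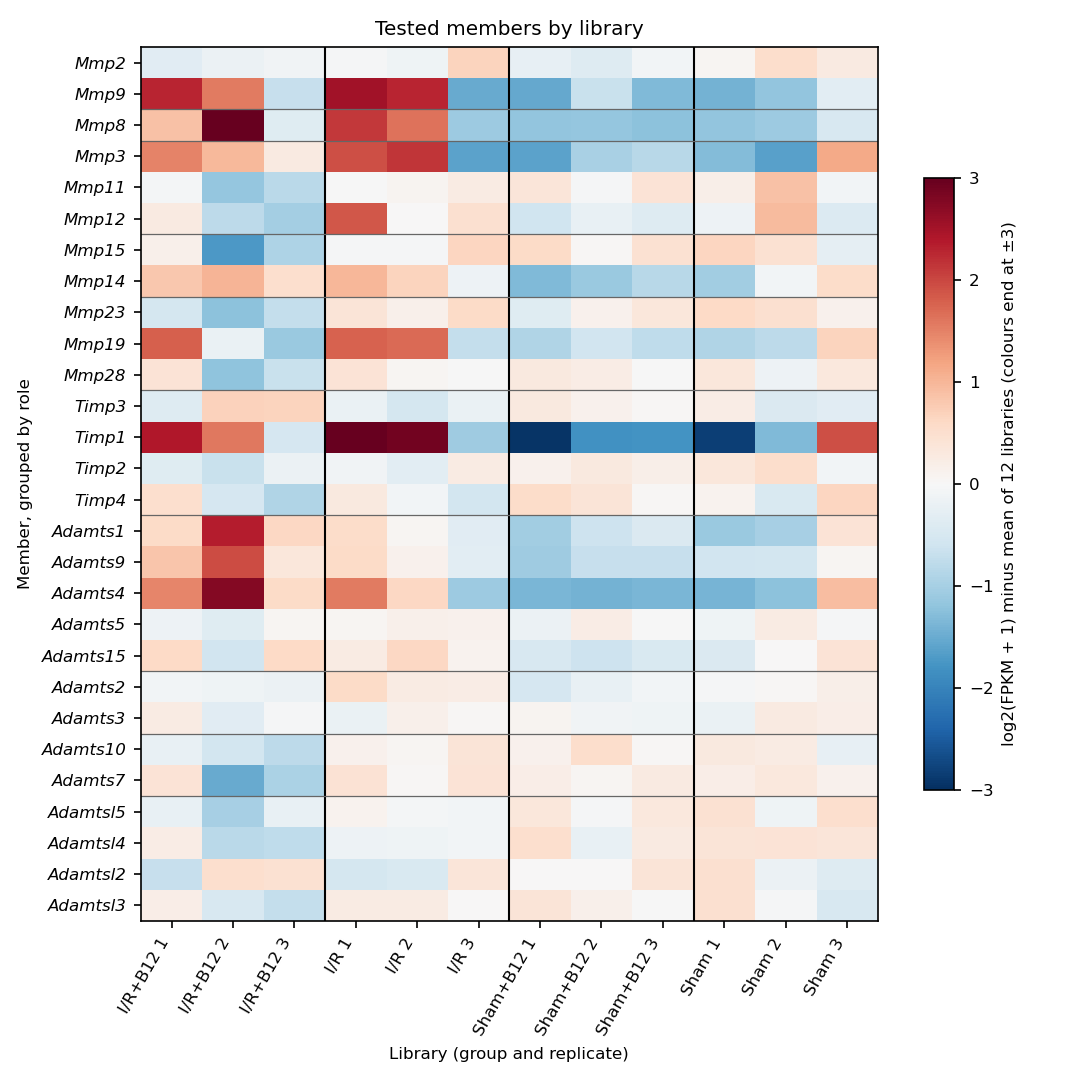
Each row is one of the 28 tested members and each column a library; colour is log2(FPKM + 1) minus the member's mean over the 12 libraries, ending at a difference of 3 in either direction. Timp1, Mmp9, Mmp8, Mmp3, Mmp19 and Adamts4 share high values in I/R 1, I/R 2 and I/R+B12 1, and the columns labelled Sham 3 and I/R 3 differ from their neighbours.

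Under B12 water, the proteoglycan-cutting proteases Adamts1, Adamts4 and Adamts9 and the membrane protease Mmp14 were higher in injured than in sham hearts, and Mmp23 and Adamts10 were lower. Differences are of log2(FPKM + 1), tested with limma over 13001 genes and adjusted by the Benjamini-Hochberg method, and a member was called at an adjusted p under 0.05. In I/R+B12 against Sham+B12, 6 of the 28 tested members were called, 4 higher and 2 lower, beside 10.4% of all tested genes (6.78% higher and 3.62% lower). At an unadjusted p under 0.05 stood 16 of the 28 members, beside 32.3% of all genes. The differences of 14 of 28 members were above 0, beside 48.1% of all genes, and the median was -0.02 over the members and -0.02 over all genes. Among the 5 tested members of the proteoglycan-cutting list, 3 were called higher and none lower, with 4 differences above 0 and 1 below. The calls rested on few libraries, for all genes as well as for the members. The number of called members was 0 when any of the libraries Sham+B12 1, Sham+B12 2, Sham+B12 3 and I/R+B12 2 was left out. In these fits 0.0%, 0.246%, 0.0% and 0.377% of all genes were called, in that order. It was 3 members with Sham 1, Sham 2 or I/R 1 left out, beside 6.73%, 6.38% and 6.93% of all genes. It was 2 with I/R 2 left out (4.93% of all genes) and 14 with I/R+B12 1 left out (29.5%). With no filter it was 0, beside 0.971% of all genes, and with both Sham 3 and I/R 3 left out it was 10, beside 12.8%.

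Adamts4, known as aggrecanase 1, had 6.57, 17.56 and 3.12 FPKM in I/R+B12 1 to 3, against 0.06, 0.03 and 0.06 FPKM in Sham+B12 1 to 3. All injured hearts lay above all sham hearts on this water, where the sham hearts were close to 0. Adamts4 reached 1 FPKM in 6 libraries, all of them from injured hearts except the library labelled Sham 3. A difference between injured and sham hearts was thus largely built into its passing the threshold. Adamts4 rose by 2.99 ± 0.75 (SE; adjusted p = 0.0364). Adamts1 had 23.78, 84.54 and 24.63 FPKM in I/R+B12 hearts, against 7.17, 9.93 and 11.4 in Sham+B12 hearts. The groups did not overlap, and I/R+B12 2 was far above the other injured hearts. Adamts1 rose by 1.87 ± 0.50 (adjusted p = 0.0416).

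Adamts9, another versican- and aggrecan-cutting protease, had 12.49, 28.38 and 8.56 FPKM in I/R+B12 hearts, against 2.59, 3.7 and 3.68 in Sham+B12 hearts. Again the groups did not overlap and I/R+B12 2 was highest. The difference was 1.86 ± 0.37 (adjusted p = 0.0236), from means of 16.5 ± 10.5 FPKM in I/R+B12 and 3.32 ± 0.635 in Sham+B12 (SD, n = 3 each). The remaining tested members of the list were not called. Adamts5, known as aggrecanase 2, differed by -0.17 (adjusted p = 0.497), with 2.76, 2.26 and 3.36 FPKM in I/R+B12 hearts and 2.71, 3.88 and 3.2 in Sham+B12 hearts, which overlapped. Adamts15 had 3.14, 0.84 and 3.14 FPKM in I/R+B12 hearts, against 0.96, 0.78 and 0.98 in Sham+B12 hearts, and differed by 0.73 (adjusted p = 0.134). The list's sum of FPKM over the 7 proteases was 49.2, 134.4 and 43.3 in I/R+B12 hearts, against 13.8, 18.6 and 19.7 in Sham+B12 hearts.

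Mmp14 (chr14:54431612-54445364, mm10, plus strand), the membrane-type protease that opens pro-MMP2 on the cell surface, had 24.93, 28.91 and 19.93 FPKM in I/R+B12 hearts, against 4.93, 5.87 and 7.31 in Sham+B12 hearts. The injured hearts were close together and all of them above the sham hearts. Mmp14 rose by 1.86 ± 0.38 (adjusted p = 0.0241). Its substrate Mmp2 had 27.02, 30.47 and 31.83 FPKM in I/R+B12 hearts, against 29.1, 26.12 and 32.39 in Sham+B12 hearts. These ranges overlapped, and Mmp2 differed by 0.03 ± 0.20 (adjusted p = 0.936). The other tested membrane-type protease, Mmp15, had 17.97, 4.17 and 7.94 FPKM in I/R+B12 hearts, against 24.21, 16.5 and 22.54 in Sham+B12 hearts, and differed by -1.19 (adjusted p = 0.0784).

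Mmp23, an unusual MMP anchored in the membrane by its propeptide, had 4.36, 2.25 and 3.71 FPKM in I/R+B12 hearts, against 5.02, 7.41 and 8.72 in Sham+B12 hearts. All injured hearts were below all sham hearts. It fell by 0.86 on the log2 scale (SE 0.23, adjusted p = 0.042). Adamts10, which binds fibrillin microfibrils, had 3.81, 2.79 and 2.24 FPKM in I/R+B12 hearts, against 5.12, 7.05 and 4.75 in Sham+B12 hearts, again without overlap. It fell by 0.75 (SE 0.21, adjusted p = 0.0445). The 4 tested ADAMTS-like members had differences between -0.69 and -0.05, and none was called. Adamtsl5 had 20.84, 11.82 and 20.98 FPKM in I/R+B12 hearts, against 31.51, 24.1 and 30.83 in Sham+B12 hearts, and differed by -0.69 (adjusted p = 0.0714). With median-ratio scaling, Adamtsl5 and Mmp11 (stromelysin 3) were called lower as well.

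**Figure D2:**
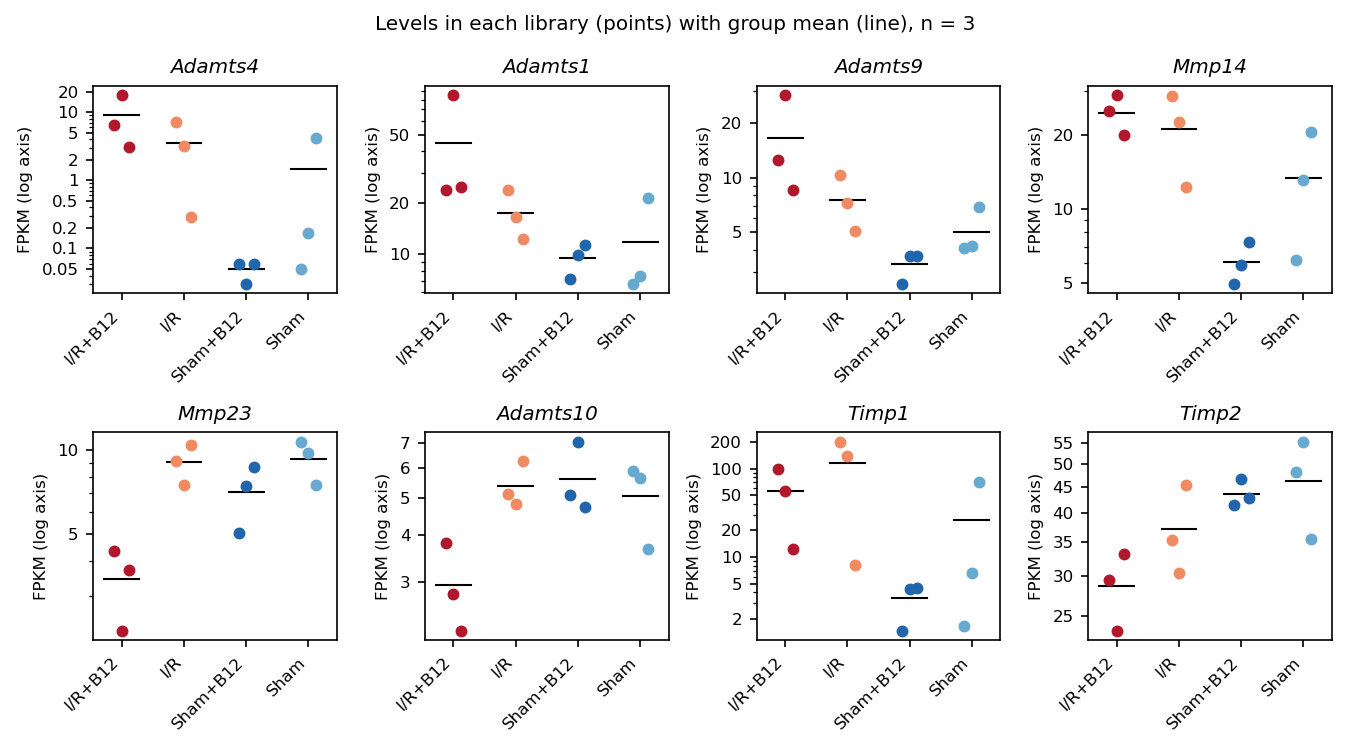
FPKM on log axes for 8 members in the 12 libraries, with points for libraries and a line for the mean of the 3 libraries of a group. In I/R+B12 hearts all points of Adamts4, Adamts1, Adamts9 and Mmp14 lie above those of Sham+B12 hearts, and all points of Mmp23, Adamts10 and Timp2 lie below.

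Of the inhibitors, Timp1 varied most. Timp1 had 99.5, 55.94 and 12.33 FPKM in I/R+B12 hearts, against 1.47, 4.39 and 4.41 in Sham+B12 hearts. The groups did not overlap, but I/R+B12 3 lay far below the other injured hearts, and the difference of 3.35 ± 1.32 was not called (adjusted p = 0.109). With Sham 3 and I/R 3 both left out, which belong to neither group but enter the estimate of the spread, Timp1 was called (3.35 ± 0.70, adjusted p = 0.0209). Timp2, the cofactor with which Mmp14 opens pro-MMP2, had 29.45, 23.35 and 33.19 FPKM in I/R+B12 hearts, against 41.37, 46.69 and 42.8 in Sham+B12 hearts. All injured hearts were lower, with a difference of -0.60 (adjusted p = 0.0666). Timp3, which stays bound to the matrix, had 69.64, 148.15 and 144.79 FPKM in I/R+B12 hearts, against 111.96, 99.85 and 93.62 in Sham+B12 hearts. Timp4 had 52.05, 25.46 and 19.03 FPKM in I/R+B12 hearts, against 53.55, 47.5 and 37 in Sham+B12 hearts. For both, the groups overlapped and neither was called (Timp3 0.17, adjusted p = 0.691; Timp4 -0.61, adjusted p = 0.269).

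The make-up of the inhibitor pool was measured as Timp1's share of the summed FPKM of the 4 TIMPs. Its share was 39.7%, 22.1% and 5.9% in I/R+B12 hearts, against 0.7%, 2.2% and 2.5% in Sham+B12 hearts. It was 55.8%, 52.4% and 5.1% in I/R 1 to 3, against 0.8%, 4.2% and 30.3% in Sham 1 to 3. The summed TIMP level was 250.6, 252.9 and 209.3 FPKM in I/R+B12 hearts and 208.3, 198.4 and 177.8 in Sham+B12 hearts, so every injured heart on B12 was above every sham heart on B12. On normal water the sums overlapped, at 359.8, 267.3 and 157.5 FPKM in I/R hearts and 195.5, 155.5 and 235.9 in Sham hearts.

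**Figure D3:**
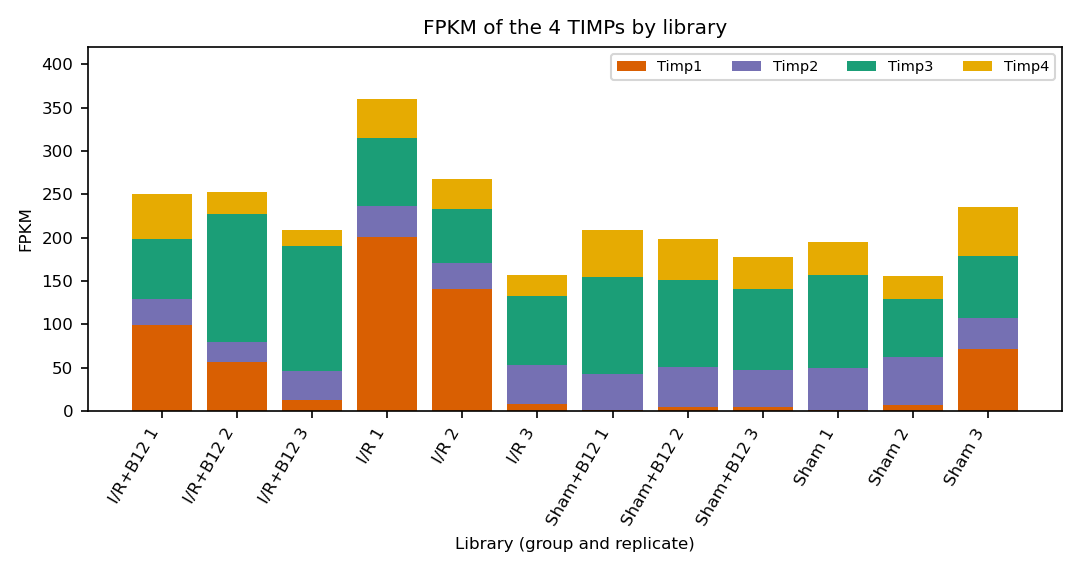
Stacked bars give the FPKM of the 4 TIMPs in each library, with I/R+B12 first and Sham last. The Timp1 segment is largest in I/R 1 and I/R 2, and the libraries labelled I/R 3 and Sham 3 differ from their groups in it.

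The MMPs that neutrophils store in their granules were high in some injured hearts and low elsewhere. Mmp8, known as neutrophil collagenase, had 3.27, 19.97 and 0.81 FPKM in I/R+B12 hearts, against 0.02, 0.05 and 0 in Sham+B12 hearts. The groups did not overlap, and the difference of 2.41 was not called (adjusted p = 0.0887). With a pseudocount of 0.1 in place of 1 it was called, at a difference of 5.02 (adjusted p = 0.0466). Because Mmp8 passed the threshold through injured hearts alone, a difference in this direction was built in, and the call is no separate support. Mmp9, which is gelatinase B, had 19.33, 11.41 and 1.6 FPKM in I/R+B12 hearts, against 0.44, 1.64 and 0.68 in Sham+B12 hearts, where the third injured heart fell within the sham range. Its difference was 2.23 (adjusted p = 0.144). Mmp25, a membrane-type protease known from human leukocytes, stayed under the threshold in every library, at 0.32, 0.63 and 0.03 FPKM in I/R+B12 hearts and 0.03, 0.04 and 0.09 in Sham+B12 hearts.

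The marker levels of neutrophils and inflammatory monocytes differed in the same libraries. The 12 neutrophil markers, all of which were detected, summed to 829.6, 2314.3 and 124.4 FPKM in I/R+B12 hearts, against 1.1, 36.4 and 6.4 in Sham+B12 hearts, and to 1311.8, 1269 and 16.4 in I/R hearts, against 6.8, 11.8 and 82.9 in Sham hearts. The 12 markers of inflammatory monocytes and macrophages summed to 541.4, 602.4 and 72.1 FPKM in I/R+B12 hearts, against 14.5, 21.9 and 18 in Sham+B12 hearts. In that comparison 4 of 9 tested neutrophil markers and 3 of 12 of these monocyte markers were called higher, and none lower. Of all genes 6.78% were called higher in it and 3.62% lower, which stand beside every marker count given here. How far these markers passed the threshold through injured hearts alone was not examined, so their higher calls may be partly built in. The 12 resident macrophage markers summed to 421.3, 178.5 and 237.5 FPKM in I/R+B12 hearts and 359.8, 484.1 and 392.8 in Sham+B12 hearts. Their median difference was -0.81, with 1 of 12 above 0, 0 called higher and 1 called lower. The 12 fibroblast markers summed to 981.7, 944.3 and 1128 FPKM in I/R+B12 hearts and 1313.6, 1377.8 and 1415.8 in Sham+B12 hearts, with none called. The 12 endothelial markers summed to 1503.9 to 2380.3 FPKM in I/R+B12 hearts and 1263.7 to 1848.9 in Sham+B12 hearts, with 2 called higher. The 12 smooth muscle and pericyte markers summed to 935.1 to 1011.2 FPKM in I/R+B12 hearts and 1015.6 to 1166 in Sham+B12 hearts, with 2 called lower. The part of these cells in the members' differences was not tested, and in RNA from heart tissue fewer cells of a type and less RNA per cell cannot be told apart.

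The stromelysins Mmp3 and Mmp10, the macrophage elastase and the collagenases lie together on chromosome 9, while Mmp11 is on chromosome 10. In this cluster 10 members stand between positions 7272514 and 7699585 (mm10) in the order Mmp13, Mmp12, Mmp1b, Mmp3, Mmp1a, Mmp10, Mmp8, Mmp27, Mmp20 and Mmp7. Only Mmp12, Mmp3 and Mmp8 reached the threshold. Mmp3, which is stromelysin 1, had 21.54, 14.84 and 8.75 FPKM in I/R+B12 hearts, against 1.67, 3.09 and 3.55 in Sham+B12 hearts. All injured hearts were above all sham hearts, and the difference of 2.04 was not called (adjusted p = 0.155). Mmp12, the macrophage elastase, had 1.44, 0.18 and 0 FPKM in I/R+B12 hearts, against 0.34, 0.74 and 0.55 in Sham+B12 hearts, which overlapped. Mmp13, the main interstitial collagenase of mice, ranged over 0 to 0.92 FPKM in the 12 libraries, and Mmp10, which is stromelysin 2, over 0 to 0.07. Mmp1a, Mmp1b, Mmp7 and Mmp20 were listed at 0 in every library.

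The start sites of the cluster differ in their letters from those of the other members and are shown for 4 genes because Mmp3 and Mmp8 reached the threshold while their neighbours Mmp13 and Mmp10 did not. The sequences are the 150 bases before the RefSeq start of the gene (GRCm38.p6, plus strand), at chr9:7445672-7445821, chr9:7272364-7272513, chr9:7502192-7502341 and chr9:7558279-7558428. Capitals mark the AP-1 motif TGANTCA.
Mmp3: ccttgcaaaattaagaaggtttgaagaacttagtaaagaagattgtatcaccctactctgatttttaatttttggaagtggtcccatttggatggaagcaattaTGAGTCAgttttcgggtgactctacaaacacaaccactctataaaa
Mmp13: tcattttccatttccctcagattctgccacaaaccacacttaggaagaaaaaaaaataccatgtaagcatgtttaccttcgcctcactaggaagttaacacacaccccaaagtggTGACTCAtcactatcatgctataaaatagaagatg
Mmp10: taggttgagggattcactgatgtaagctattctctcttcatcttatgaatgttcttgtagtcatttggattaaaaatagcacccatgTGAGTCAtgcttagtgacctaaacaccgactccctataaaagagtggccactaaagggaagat
Mmp8: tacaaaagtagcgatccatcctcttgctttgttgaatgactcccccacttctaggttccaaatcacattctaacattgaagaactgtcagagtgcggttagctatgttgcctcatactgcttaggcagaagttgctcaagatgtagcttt
The first base of the motif lies 46 bases before the start in Mmp3, 35 in Mmp13 and 63 in Mmp10, and it is not in the letters shown for Mmp8. RefSeq windows of 250 bases were found for 36 of the 51 members, 20 of them tested, and 3 members had more than 1 start, of which the first was used. The motif, a palindrome read on both strands, was in 7 of 36 members (19.4%), against 6.87% of 27018 genes. All 7 lay in the cluster, where 7 of 10 members held it (Mmp13, Mmp1b, Mmp3, Mmp1a, Mmp10, Mmp20 and Mmp7), while none of the 26 other members did. The same 7 also held TATAAA on the gene's strand, a pair of motifs found in 0.862% of all genes. Of these 7, Mmp3 alone reached the threshold in these hearts. The AP-1 motif was thus in 1 of the 20 tested members with a window (5.0%), beside 6.87% of all genes. The motif TGACGTCA was in 0 of 36 members and 1.62% of all genes.

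The start sites of Adamts9, Mmp14 and Adamts1, which were called, and of Timp1, on other chromosomes, are shown in the same way, on the gene's own strand, at chr6:92943535-92943684 (minus strand), chr14:54431448-54431597 (plus), chr16:85803114-85803263 (minus) and chrX:20870016-20870165 (plus). Capitals mark the GC box GGGCGG or its reverse complement.
Adamts9: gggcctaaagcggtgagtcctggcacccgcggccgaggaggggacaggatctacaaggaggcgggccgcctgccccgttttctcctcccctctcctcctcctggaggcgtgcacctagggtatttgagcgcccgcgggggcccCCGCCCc
Mmp14: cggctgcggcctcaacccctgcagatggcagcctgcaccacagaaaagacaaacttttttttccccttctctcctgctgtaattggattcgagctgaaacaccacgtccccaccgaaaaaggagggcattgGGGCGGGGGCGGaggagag
Adamts1: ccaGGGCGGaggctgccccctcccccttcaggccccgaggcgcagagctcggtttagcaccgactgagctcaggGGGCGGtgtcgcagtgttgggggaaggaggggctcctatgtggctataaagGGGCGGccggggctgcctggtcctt
Timp1: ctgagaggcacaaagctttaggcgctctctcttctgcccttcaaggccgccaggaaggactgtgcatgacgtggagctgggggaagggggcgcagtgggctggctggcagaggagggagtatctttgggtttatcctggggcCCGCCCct
Adamts1 holds 3 such boxes in this stretch and Mmp14 holds 2 in a row, where Adamts9 and Timp1 hold 1 each close to the start. A GC box was in 20 of 36 members (55.6%), against 32.9% of all genes. It was in none of the 10 genes of the chromosome 9 cluster and in 20 of the 26 other members (76.9%). These matches describe letters in a window and not binding.

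The libraries of I/R+B12 and Sham+B12 did not overlap in 12 of 28 tested members, beside 32.4% of all genes. The 7 with all injured hearts higher, beside 19.1% of all genes, were Adamts1, Adamts4, Adamts9, Mmp14, Mmp3, Mmp8 and Timp1. Of these, Mmp8 passed the threshold only, and Adamts4 mainly, through injured hearts. The 5 with all injured hearts lower, beside 13.2%, were Adamts10, Adamtsl5, Mmp11, Mmp23 and Timp2.

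On normal water no member passed the test. In I/R against Sham, limma called 0 of 28 members and 0.0% of the 13001 genes, and 0 members had an unadjusted p under 0.05, beside 11.7% of all genes. The differences of 16 members were above 0, beside 69.1% of all genes. The median difference was 0.09 over the tested members and 0.13 over all genes, and with median-ratio scaling, which sets the second to 0, the first was -0.03 with 13 differences above 0. Timp1 had 200.72, 140.16 and 8.05 FPKM in I/R hearts, against 1.66, 6.56 and 71.45 in Sham hearts. I/R 1 and 2 were the highest of all libraries. The library labelled I/R 3 was a little above Sham 1 and 2, and Sham 3 lay between these and I/R 1 and 2. The difference of Timp1 was 2.49 ± 1.32 (adjusted p = 0.462). Mmp9 had 23.1, 19.46 and 0.48 FPKM in I/R hearts, against 0.57, 0.84 and 2.35 in Sham hearts, and differed by 2.08 (adjusted p = 0.434). Mmp8 had 9.09, 6.18 and 0.09 FPKM in I/R hearts, against 0.02, 0.09 and 0.66 in Sham hearts, and differed by 1.81 (adjusted p = 0.441). In both, I/R 3 was within or below the range of the sham hearts.

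Other members of this comparison also split by these libraries. Mmp3 had 29.88, 34.75 and 1.67 FPKM in I/R hearts, against 2.26, 1.61 and 16.81 in Sham hearts. Mmp14 had 28.67, 22.53 and 12.22 FPKM in I/R hearts, against 6.18, 13.06 and 20.58 in Sham hearts, and differed by 0.69 (adjusted p = 0.47). Adamts4 had 7.04, 3.2 and 0.29 FPKM in I/R hearts, against 0.05, 0.17 and 4.19 in Sham hearts. In each of these 3 genes Sham 3 was above I/R 3. Adamts1 had 23.76, 16.4 and 12.24 FPKM in I/R hearts, against 6.7, 7.42 and 21.33 in Sham hearts, and Adamts9 had 10.34, 7.22 and 5.1 in I/R hearts, against 4.07, 4.19 and 6.86 in Sham hearts. Adamts9 overlapped through the same pair of libraries, and Adamts1 through Sham 3 alone, which was above both I/R 2 and I/R 3. Mmp2 had 33.85, 31.58 and 55.63 FPKM in I/R hearts, against 35.81, 50.48 and 42.1 in Sham hearts. Its groups overlapped, with the highest value in I/R 3.

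The groups did not overlap in 2 of 28 members, beside 22.4% of all genes, 1 with all I/R hearts higher (18.8% of all genes) and 1 with all lower (3.6%). Adamts2, the main procollagen I N-proteinase, had 9.41, 7.29 and 7.15 FPKM in I/R hearts, against 5.82, 6.15 and 6.84 in Sham hearts, and differed by 0.29 (adjusted p = 0.449). Adamtsl4, a fibrillin-binding protein, had 9.76, 10.09 and 10.3 FPKM in I/R hearts, against 14.82, 15.02 and 14.52 in Sham hearts, and differed by -0.51 (adjusted p = 0.444). The values of Adamtsl4 were close together within each group, also in the libraries that stood apart. With Sham 3 and I/R 3 both left out, 2 members were called, Mmp3 at 3.51 ± 0.38 (adjusted p = 0.0111) and Timp1 at 5.23 ± 0.85 (adjusted p = 0.0461), with 56 genes (0.431%) called in all. In that fit Mmp9 differed by 3.71 (adjusted p = 0.077), Mmp14 by 1.39 (adjusted p = 0.0942), Adamts4 by 2.39 (adjusted p = 0.106) and Mmp8 by 3.01 (adjusted p = 0.144), which were not called. Adamts1 differed by 1.37 (adjusted p = 0.235), Adamts9 by 0.91 (adjusted p = 0.321) and Mmp2 by -0.37 (adjusted p = 0.343). Adamts2 differed by 0.41 (adjusted p = 0.307) and Adamtsl4 by -0.54 (adjusted p = 0.447).

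**Figure D4:**
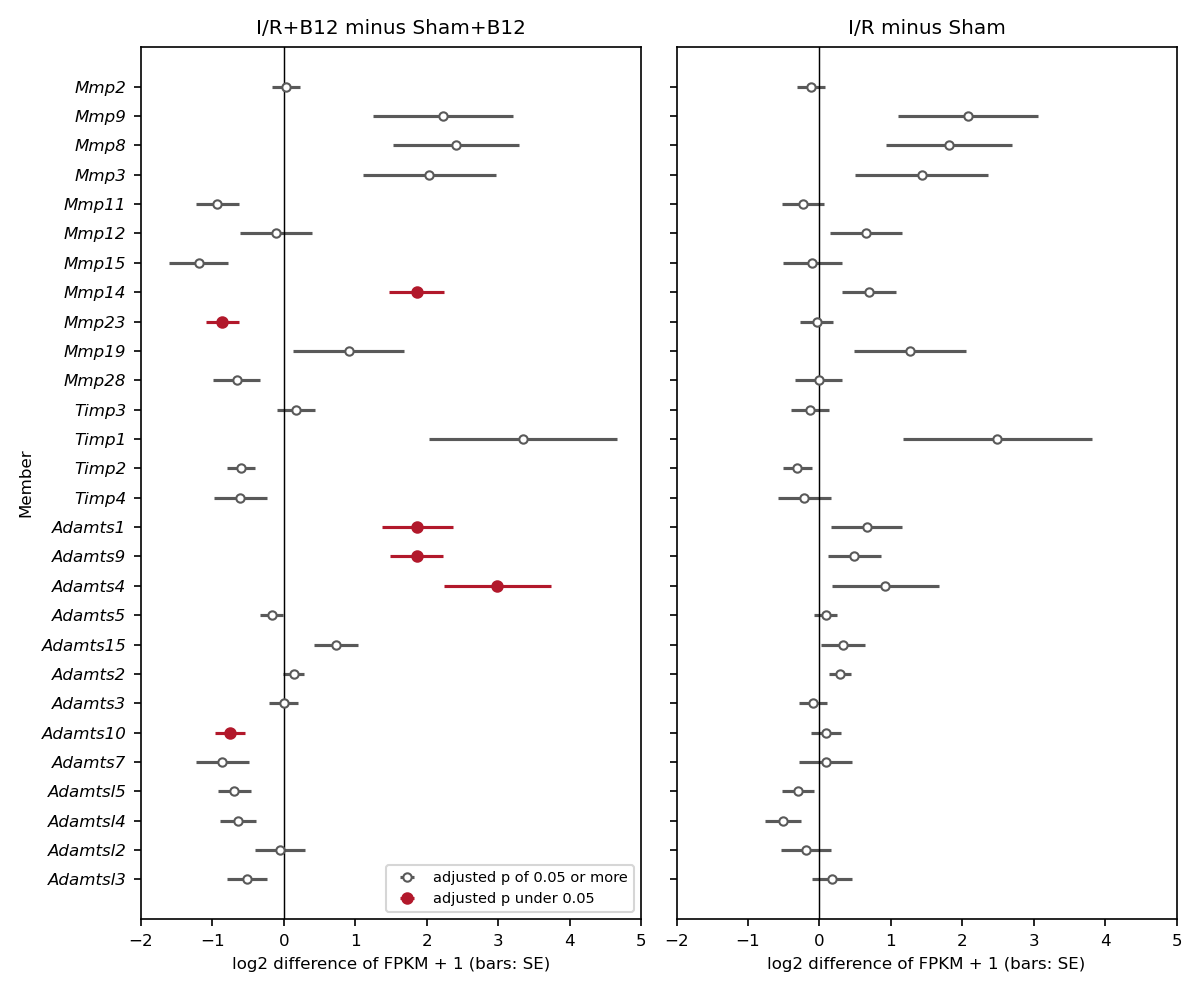
Points give the log2 difference of each of the 28 tested members with its standard error, for I/R+B12 minus Sham+B12 on the left and I/R minus Sham on the right, and filled red points have an adjusted p under 0.05. The left panel has 6 such points, 4 above and 2 below 0, and the right panel has none.

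Averaged over both waters, Mmp14 and the proteoglycan-cutting Adamts1, Adamts4 and Adamts9 were higher in injured hearts. In the mean of both injury differences 4 of 28 members were called, all higher, beside 10.1% of all genes (8.36% higher and 1.71% lower). An unadjusted p under 0.05 was found in 16 members, beside 31.3% of all genes, and 13 of 28 differences were above 0, beside 56.7%. Mmp14 rose by 1.28 ± 0.27 (adjusted p = 0.0262), Adamts9 by 1.17 ± 0.26 (adjusted p = 0.0284), Adamts4 by 1.96 ± 0.53 (adjusted p = 0.0426) and Adamts1 by 1.27 ± 0.36 (adjusted p = 0.0471). Mmp14 averaged 22.9 ± 6.27 FPKM in the 6 injured hearts and 9.65 ± 6.09 in the 6 sham hearts (SD). These values hold the same libraries as the comparison under B12 and are not independent of it. Mmp8 (2.11, adjusted p = 0.0524) and Timp2 (-0.46, adjusted p = 0.057) were next and were not called. No member had all injured hearts on the same side of all sham hearts, beside 4.26% of all genes. The number called was 0 when any of Sham 1, Sham 2, Sham+B12 1, Sham+B12 3, I/R 1 and I/R 2 was left out. In these fits 0.0% to 2.18% of all genes were called. It was 2 members when Sham+B12 2 was left out (4.32% of all genes), 7 for Sham 3 (10.7%) and 9 for I/R 3 (16.3%). It was 12 for I/R+B12 1 (20.8%) and 9 for I/R+B12 3 (17.4%). With I/R+B12 2 left out it was 3 (Adamts15, Adamts9 and Mmp14), beside 4.71% of all genes, and Adamts1 and Adamts4 were not called. The number was 10 when Sham 3 and I/R 3 were both left out, beside 17.7% of all genes. In that last fit the difference was 1.63 for Mmp14, 1.39 for Adamts9, 2.69 for Adamts4, 1.62 for Adamts1, 2.71 for Mmp8 and -0.62 for Timp2, all of them called (adjusted p between 0.00325 and 0.0149). For Mmp8, and largely for Adamts4, such a difference was built into passing the threshold. With median-ratio scaling 3 were called higher and 3 lower (Adamtsl4, Adamtsl5 and Timp2), beside 8.78% of all genes, and Adamts1 was not called (1.20, adjusted p = 0.0631). With no filter 0 were called, beside 1.02% of all genes.

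Between injured hearts with and without B12, no member was called. In the I/R+B12 hearts set against the I/R hearts, limma called 0 of 28 members and 0.0% of all genes, while 9 members had an unadjusted p under 0.05, beside 28.5% of all genes. The median difference was -0.34 over the tested members and -0.21 over all genes, and with median-ratio scaling that of the members was -0.11. In that scaling 12 of the 28 differences were above 0, against 8 of 28 without it, beside 28.2% of all genes. Mmp23 had 4.36, 2.25 and 3.71 FPKM in I/R+B12 hearts, against 9.13, 7.51 and 10.46 in I/R hearts, with a difference of -1.20 (adjusted p = 0.0739). Adamts10 had 3.81, 2.79 and 2.24 FPKM in I/R+B12 hearts, against 5.13, 4.82 and 6.27 in I/R hearts (-0.71, adjusted p = 0.0916). Adamts2 had 5.56, 5.35 and 5.12 FPKM in I/R+B12 hearts, against 9.41, 7.29 and 7.15 in I/R hearts (-0.49, adjusted p = 0.0945). In all 3 the groups did not overlap and the I/R+B12 hearts were lower. Adamts7, a protease of cartilage oligomeric matrix protein, had 5.29, 0.65 and 1.45 FPKM in I/R+B12 hearts, against 5.38, 3.85 and 5.27 in I/R hearts (-0.98, adjusted p = 0.125). Here I/R+B12 1 was within the range of the I/R hearts. Mmp11 (-0.78, adjusted p = 0.125) and Mmp12 (-1.30, adjusted p = 0.126) followed. With Sham 3 and I/R 3 both left out, 0 members were called and the differences were -1.10 for Mmp23, -0.62 for Adamts10, -0.55 for Adamts2, -0.92 for Adamts7, -0.71 for Mmp11 and -1.45 for Mmp12, with adjusted p between 0.122 and 0.237.

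The groups did not overlap in 7 of 28 members, beside 23.2% of all genes (4.41% higher and 18.8% lower). Among the tested members Adamts1 alone was higher in all I/R+B12 hearts, at 23.78 to 84.54 FPKM against 12.24 to 23.76 in I/R hearts, with the lowest of the first next to the highest of the second. The 6 lower ones were Adamts10, Adamts2, Adamts5, Adamtsl5, Mmp11 and Mmp23. The calls turned on 1 library. With I/R+B12 1 left out, the number called was 11, with Timp3 higher and Adamts10, Adamts2, Adamts7, Adamtsl3, Adamtsl4, Mmp11, Mmp12, Mmp15, Mmp23 and Mmp28 lower, when 4412 genes (33.9%) were called in all. Timp3 had 69.64, 148.15 and 144.79 FPKM in I/R+B12 hearts, against 79.16, 62.4 and 79.28 in I/R hearts, so I/R+B12 1 was in the range of the I/R hearts here too.

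The injury differences on both waters were also set against each other. When the injury difference on normal water was subtracted from that on B12 water, limma called 0 of 28 members and 0.0% of all genes, and 3 members had an unadjusted p under 0.05, beside 12.3% of all genes. They were Adamts10 (-0.84), Adamts9 (1.38) and Mmp23 (-0.82), each with an adjusted p of 0.401. The difference was above 0 in 13 members, beside 36.3% of all genes. Mmp14 (1.17, adjusted p = 0.408) and Adamts4 (2.06, adjusted p = 0.425) followed. A different injury response on B12 water was thus not shown for any member with all libraries in the fit. With Sham 3 and I/R 3 both left out, 0 members were called, and the difference was 0.47 for Mmp14 and 0.60 for Adamts4. It was 0.95 for Adamts9, -0.57 for Adamts10 and -0.59 for Mmp23, with adjusted p between 0.702 and 0.79 for these 5 members, and the median of the proteoglycan-cutting list was 0.51, against 1.21 with all libraries. With I/R+B12 1 left out, 4 of 28 members were called lower, Adamts10, Adamts7, Mmp15 and Mmp28, beside 14.1% of all genes called in either direction.

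In sham hearts B12 went with no called member. In Sham+B12 against Sham, limma called 0 of 28 members and 0.0% of all genes, and 3 members had an unadjusted p under 0.05, beside 1.69% of all genes. Mmp2 had 29.1, 26.12 and 32.39 FPKM in Sham+B12 hearts, against 35.81, 50.48 and 42.1 in Sham hearts, and differed by -0.53 (adjusted p = 0.999). Mmp14 had 4.93, 5.87 and 7.31 FPKM in Sham+B12 hearts, against 6.18, 13.06 and 20.58 in Sham hearts, and differed by -0.90 (adjusted p = 0.999). Adamts2 had 3.87, 4.95 and 5.53 FPKM in Sham+B12 hearts, against 5.82, 6.15 and 6.84 in Sham hearts, and differed by -0.34 (adjusted p = 0.999). All Sham+B12 hearts were lower in Mmp2 and Adamts2, while the groups overlapped in Mmp14. The groups did not overlap in 4 members, all lower (Adamts15, Adamts2, Adamts9 and Mmp2), beside 10.5% of all genes in either direction, 8.98% lower and 1.54% higher. With Sham 3 and I/R 3 both left out, 0 members were called, and the difference was -0.53 for Mmp14, -0.53 for Mmp2 and -0.28 for Adamts2 (adjusted p = 1.0 each). Of the 28 differences 7 were above 0, beside 32.1% of all genes, and with median-ratio scaling 11 were.

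Genes that open, hold back or serve as substrates for these proteases were described beside them in 4 lists of 61 genes, 47 of them tested. In I/R+B12 against Sham+B12, 7 were called higher and 3 lower, 10 of 47, beside 10.4% of all genes. Of the 9 tested genes that open proteases, Plaur, the receptor of urokinase, rose by 3.94 (adjusted p = 0.0236), with means of 54.4 FPKM in I/R+B12 hearts and 1.84 in Sham+B12 hearts. Furin, the convertase that cuts the propeptide of membrane-type MMPs, rose by 0.85 (adjusted p = 0.0378), and tissue plasminogen activator, Plat, by 1.22 (adjusted p = 0.042). Pcsk6, another convertase, fell by 1.44 (adjusted p = 0.0401). Of the 9 tested inhibitors and enhancers, the membrane-anchored MMP inhibitor Reck fell by 0.86 (adjusted p = 0.0433), with means of 1.66 FPKM in I/R+B12 hearts and 3.8 in Sham+B12 hearts, and the procollagen enhancer Pcolce fell by 0.72 (adjusted p = 0.0455).

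Of the 19 tested matrix and substrate genes 4 rose under B12 water, beside 6.78% of all genes higher. They were the basement membrane collagens Col4a1 (1.57, adjusted p = 0.0155) and Col4a2 (1.33, adjusted p = 0.0155), elastin, Eln (1.12, adjusted p = 0.0192), and thrombospondin 1, Thbs1 (3.91, adjusted p = 0.0398). None of the 10 tested ADAM and astacin proteases was called there, and Adam8 differed by 2.87 (adjusted p = 0.076). Averaged over both waters, 8 of the 47 genes were called, all higher, beside 8.36% of all genes called higher, with Plaur (2.84), Cd44 (1.81), Adam9 (0.59) and Adam15 (0.47) beside the same 4 matrix genes. In the remaining comparisons none of the 47 was called. Between I/R+B12 and I/R hearts, the fibrillar collagens Col3a1 (-2.73), Col1a1 (-1.75), Col1a2 (-1.51) and Col5a1 (-1.57) had an adjusted p of 0.0739 each.

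The 23 members under the threshold stayed at 1.16 FPKM or lower in every library, and 4 of them were listed at 0 throughout. By role, 1 of 4 collagenases, 2 of 6 membrane-type MMPs, 5 of 7 proteoglycan-cutting ADAMTS, 2 of 3 procollagen N-proteinases, 2 of 9 other ADAMTS and 4 of 5 ADAMTS-like members were tested, as were all 4 TIMPs and both gelatinases. The threshold is a level in FPKM and not a limit of depth, and a member under it is not shown to be absent.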

How the data were processed

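Poly(A)-selected heart RNA was sequenced in pairs of reads, per the labels' protocols. The authors deposited 1 table of FPKM per gene and library. The submitters' processing notes name HISAT2, StringTie and the build mm10, and their versions, settings and annotation are not given in the sources used here. Whether the kit kept strand is not stated, so where exons of several members, Adamts9 and Mmp19 among them, overlap a gene on the opposite strand, reads cannot be told apart.

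From the deposited FPKM, log2(FPKM + 1) was fitted for the 13001 genes that reached 1 FPKM in 3 or more libraries. The tool was limma (version 3.58.1, R version 4.3.3), its prior variance following the mean level, with all 12 libraries in 1 fit and 6 contrasts. P-values were two-sided and adjusted by Benjamini-Hochberg over all tested genes. This scale understates changes of genes near an FPKM of 0. ± after a difference is its SE, and after a mean its SD. The fit was tested on simulated data. Coordinates come from GENCODE M21, promoters from RefSeq (GRCm38.p6), and figures from matplotlib 3.10.9. Depth was estimated from FPKM steps of short genes, with low values within 0.15 of a whole fragment in 83.7% to 89.4% of cases, and covers counting error only.

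The members and all lists were chosen with earlier results of these data known. Described by library were the TIMPs, the 8 most abundant members, called members, the 3 with the smallest p in each contrast, and the neutrophil and chromosome 9 members. Named with a test were called members and, where fewer than 6 were called, those with the smallest p up to 6, and in the companion lists up to 4 for each list and contrast. Further members were named after their values were seen. Alternatives were a pseudocount of 0.1, no filter, median-ratio scaling, a replicate block, each library left out, and both libraries that stood apart left out.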

Additional observations from a re-analysis of the deposited data

How the results depend on the processing

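The labels number the libraries 1 to 3 in each group, and 4 of 18 pairs with the same number had a correlation over 0.1 after group means were removed (mean 0.014, range -0.412 to 0.391), so the numbers were not used as pairs. With a replicate block, 3 members were called in I/R+B12 against Sham+B12 (Adamts9, Mmp14 and Adamtsl5), where 6 were called without it and 2 were shared. In the average over both waters the block called 4 members, as without it, but 2 were shared (Adamts9 and Mmp14): Adamts1 and Adamts4 were not called (adjusted p = 0.0595 each), and Mmp8 and Adamtsl5 were. In the other 4 comparisons 0 members were called with and without the block.

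With no filter, 0 members and 262 genes were called in I/R+B12 against Sham+B12 and 0 members and 274 genes in the average over both waters, where 1352 and 1309 genes had been called, while 14 and 18 members had an unadjusted p under 0.05. More genes were tested there. Without a filter 3 genes were called in Sham+B12 against Sham and 1 in the interaction (the injury difference under B12 less that on normal water). With median-ratio scaling 2 genes were called in I/R+B12 against I/R. With Sham 3 and I/R 3 both left out, 2 members and 56 genes were called in I/R against Sham, 10 members in I/R+B12 against Sham+B12, 10 members and 2298 genes in the average, 5 genes between I/R+B12 and I/R hearts and 2 in the interaction.

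Each library left out in turn gave 0 to 14 members and 0 to 3836 genes in I/R+B12 against Sham+B12, and 0 to 12 members and 0 to 2700 genes in the average. Between I/R+B12 and I/R hearts it gave 0 to 11 members and 0 to 4412 genes, and 0 to 4 members and 0 to 1830 genes in the interaction. For I/R against Sham and for Sham+B12 against Sham it gave 0 members and 0 to 1 genes. The cause of these shifts was not tested. Over 36 named pairs of a member and a comparison and 17 alternatives, 508 of 612 values kept their direction and their side of the threshold, 84 kept their direction and lost the call, 20 kept it and gained a call, and none changed sign. Only the pairs called with all libraries, 6 in I/R+B12 against Sham+B12 and 4 in the average, could lose a call. Leaving out a library that is in neither group of a comparison does not change its difference, so many kept directions were fixed in advance. Differences of Adamts4 and Mmp8 rest on Sham+B12 values near 0 FPKM, and that of Mmp12 on values near 0 in I/R+B12 2 and 3.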
